A study of Ovis aries with 12 samples.

Results

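The genes described here act in the folding of proteins in the endoplasmic reticulum and in the response to stress of that compartment. The rule named 10 genes: the chaperones and folding enzymes HSPA5, HSP90B1, CALR, PDIA4, PDIA6 and DNAJB9, the degradation factor HERPUD1, and the transcription factors DDIT3, ATF4 and XBP1. In the gene annotation of the array, 8 of the 10 had a probe set that carried their symbol alone. These 8 genes had 12 probe sets, out of 24016 probe sets tested. HSPA5 and PDIA4 had 3 probe sets each, and the other 6 genes had 1 each. PDIA6 and XBP1 matched no probe set under those symbols and were not analysed here.

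Bovine Affymetrix arrays were used to measure RNA of 12 sheep corpora lutea, each from another ewe. A corpus luteum forms in the ovary after ovulation and secretes progesterone. The 4 groups were day 14 pregnant, day 14 non-pregnant, day 12 pregnant and day 12 non-pregnant, with 3 ewes and 1 array each. The pregnant ewes were bred by a fertile ram, whereas the non-pregnant ewes were left unbred and their cycle day was followed with a vasectomized ram. The labels used here name no breed, age or treatment of the ewes. Groups follow the source label of each sample, since all 12 titles read day 12 pregnant, which conflicts with the source label in 9 of them. Sheep RNA on bovine probes can give a low signal where the species differ in sequence, so levels are compared between arrays within a probe set and not between genes, and low ones are only marked as dim.

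The description labels call 4 arrays a gene array, here batch A, and 8 a genome array, here batch B, with another date for each. Whether these were different array designs or only separate runs is unsettled, so values by batch can reflect either. Batch A held day 14 pregnant replicate 3, day 14 non-pregnant replicates 2 and 3, and day 12 pregnant replicate 3, and every comparison below was fitted with a term for the batch. The median log2 level of an array was 5.16 to 5.24. On the first principal component, with 29.6% of the variance, the day 14 non-pregnant arrays lay at 18.1, 33.7 and 40.4, and the other 9 lay between -13.0 and -7.00. The 2 batch A arrays of that group were the farthest out. The difference between 3′ and 5′ probe sets of control transcripts, a sign of RNA integrity and labelling, was 1.44 to 1.60 in day 14 pregnant glands, against 1.29 to 1.43 in day 14 non-pregnant glands, on the log2 scale. It was 1.57 to 1.60 in day 12 pregnant glands, against 1.42 to 1.47 in day 12 non-pregnant glands, so it moved with pregnancy on both days, and its part in the results was not tested.

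As background, secreted and membrane proteins fold in the endoplasmic reticulum with the help of chaperones that hold unfolded chains and of enzymes that form disulfide bonds. When unfolded chains build up, the sensors PERK, IRE1 and ATF6 start the unfolded protein response. ATF6 and the spliced form of XBP1 raise the genes of chaperones and of degradation, while PERK slows translation through eIF2alpha and raises ATF4. ATF4 acts on genes of amino acid supply and redox balance and on DDIT3, also called CHOP, which is known for promoting cell death under long stress. Much of this control works through splicing, cleavage and translation, which an array of transcript levels does not read. The corpus luteum is rich in endoplasmic reticulum because it makes steroids, and in a cycle without a conceptus it regresses.

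HSPA5, also called BiP or GRP78, is the main HSP70 chaperone of the endoplasmic reticulum lumen and holds the stress sensors inactive. It was the only one of the 8 genes that passed the threshold in any comparison between a pair of groups, and it was lower in pregnant than in non-pregnant glands on day 14. Its brightest probe set read 11.99, 12.08 and 11.94 in the day 14 pregnant glands, against 12.69, 12.61 and 12.40 in the day 14 non-pregnant glands, as log2 levels. All 3 pregnant glands lay below all 3 non-pregnant glands. The fitted difference was -0.59 ± 0.12 (SE), a linear ratio of 0.664, with a limma adjusted p of 0.0389 over all 24016 probe sets. Its 95% interval ran from -0.86 to -0.32, and the batch A arrays alone gave -0.56 and the batch B arrays alone -0.66.

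The second HSPA5 probe set had a larger difference. It read 9.03, 8.64 and 8.73 in day 14 pregnant glands, against 10.01, 9.98 and 9.72 in day 14 non-pregnant glands. The groups again did not overlap, and the gap between them was wider than the range within either. The fitted difference was -1.13 ± 0.17 (limma adjusted p = 0.00836), a linear ratio of 0.456, which placed the probe set at rank 78 of all probe sets by p. Within the batches the difference was -1.12 in batch A and -1.17 in batch B. The third HSPA5 probe set was dim, with a mean log2 level of 2.23. It read 2.18, 1.92 and 1.88 in day 14 pregnant glands, against 2.45, 2.80 and 2.45 in day 14 non-pregnant glands, a difference of -0.58 ± 0.14 that did not pass (limma adjusted p = 0.0738). The 3 HSPA5 probe sets thus had the same sign, and their levels correlated over the 12 arrays with r of 0.901, 0.802 and 0.911. In whole glands, fewer cells of a type that holds much HSPA5 RNA and less HSPA5 RNA per cell cannot be told apart.

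The call on the brightest HSPA5 probe set was lost when any of 10 arrays was left out. It passed in 2 of the 12 fits that left out 1 array, with adjusted p of 0.0309 to 0.178 and differences of -0.66 to -0.52. The second HSPA5 probe set passed in 11 of 12, with differences of -1.22 to -1.05, and missed only without day 14 pregnant replicate 3 (limma adjusted p = 0.0732). Without day 14 non-pregnant replicates 2 and 3, the HSPA5 differences were -0.68 and -1.17, with adjusted p of 0.111 and 0.0696.

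**Figure D1:**
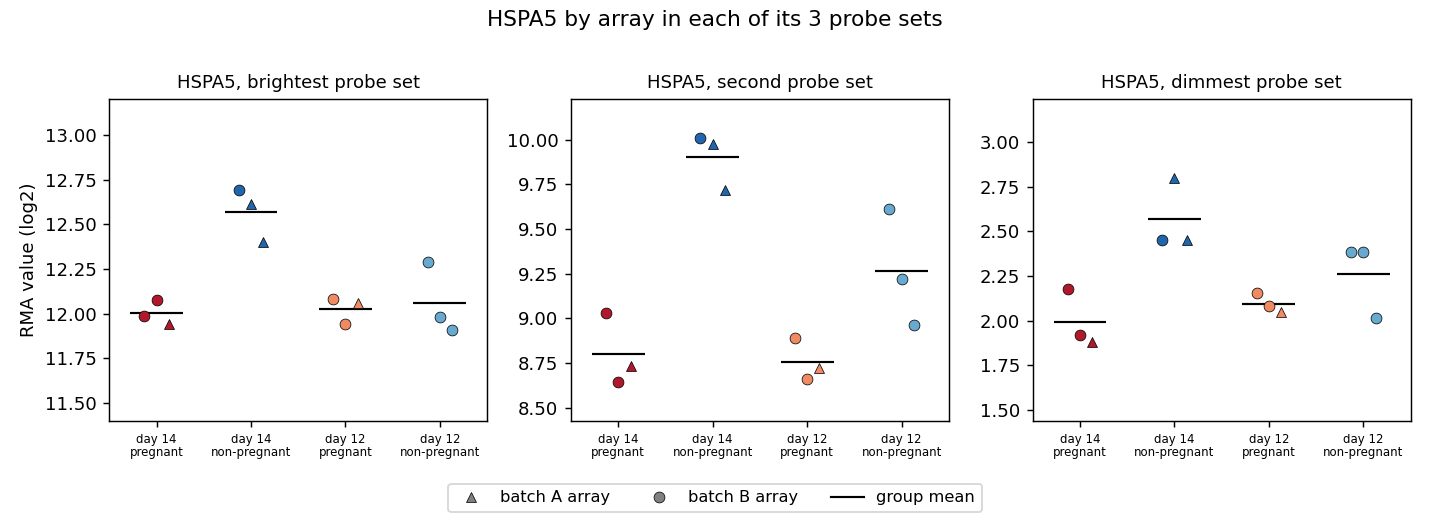
Log2 level of each HSPA5 probe set in each array, by group, with a bar for the group mean. In all 3 probe sets the day 14 non-pregnant arrays lie above the day 14 pregnant arrays, and in the second set they lie between 9.72 and 10.0.

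The other lumenal chaperones and folding enzymes did not pass on day 14. HSP90B1, the HSP90 of the endoplasmic reticulum, also called GRP94, read 10.51, 10.69 and 10.65 in day 14 pregnant glands, against 10.75, 10.59 and 10.50 in day 14 non-pregnant glands. The groups overlapped, and the difference was -0.0080 ± 0.0998 (limma adjusted p = 0.982). Its 95% interval, -0.23 to 0.21, held no fall of the size seen for either bright HSPA5 probe set. CALR, the lectin chaperone calreticulin that also binds calcium, read 9.57, 9.42 and 9.91 in day 14 pregnant glands, against 9.68, 9.94 and 9.74 in day 14 non-pregnant glands. Here too the groups overlapped, with a difference of -0.095 ± 0.13 (limma adjusted p = 0.778) and an interval of -0.37 to 0.18.

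PDIA4, a protein disulfide isomerase also called ERp72, read 5.65, 5.85 and 5.63 in its brightest probe set in day 14 pregnant glands, against 5.61, 5.83 and 5.86 in day 14 non-pregnant glands. The difference was -0.067 ± 0.14 (limma adjusted p = 0.872). Its other 2 probe sets gave 0.044 and -0.0048, and the 3 PDIA4 probe sets correlated only weakly with each other over the 12 arrays (r of 0.197 to 0.436).

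DNAJB9, also called ERdj4, is a J-domain cochaperone of HSPA5 that in mice keeps the sensor IRE1 repressed. It read 9.41, 9.68 and 9.47 in day 14 pregnant glands, against 10.20, 9.66 and 9.90 in day 14 non-pregnant glands. The groups overlapped by 1 array, since day 14 pregnant replicate 2 lay above day 14 non-pregnant replicate 2. The difference was -0.49 ± 0.14, with a limma p of 0.00433 before adjustment and 0.115 after it, so DNAJB9 did not pass. The batch A value of DNAJB9 was -0.32 and the batch B value -0.66.

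A ratio within an array shows whether HSPA5 and another folding gene differed unequally between the groups. The log2 ratio of HSPA5 to HSP90B1, centred on its mean over the 12 arrays, was -0.26 to -0.066 in day 14 pregnant glands, against 0.35 to 0.48 in day 14 non-pregnant glands. The ratio of HSPA5 to PDIA4 was -0.21 to -0.096 in day 14 pregnant glands, against 0.10 to 0.65 in day 14 non-pregnant glands. Neither pair of ranges overlapped. The differences were -0.57 and -0.51, each with an exact two-sided permutation p of 0.1, the smallest that 3 against 3 arrays allow, and 0.2 after adjustment over the 4 ratios. The ratio to CALR differed by -0.41 and that to DNAJB9 by -0.16, with exact permutation p of 0.2 and 0.4 and overlapping ranges.

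HERPUD1 is a membrane protein of the degradation complex and is known as a gene raised by endoplasmic reticulum stress. It read 10.38, 10.31 and 9.69 in day 14 pregnant glands, against 9.94, 8.73 and 9.75 in day 14 non-pregnant glands. It was the only one of the 8 genes with a positive difference on day 14, 0.52 ± 0.25, and it did not pass (limma adjusted p = 0.344). Most of the spread came from day 14 non-pregnant replicate 2, the array at 8.73, and without it the HERPUD1 difference was 0.24. Over the 12 arrays, which share groups and batches, HERPUD1 correlated negatively with DDIT3 (r = -0.670) and with CALR (r = -0.613), and within groups the values were -0.520 and -0.589.

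ATF4, the factor whose translation rises when eIF2alpha is phosphorylated, read 9.80, 9.86 and 9.88 in day 14 pregnant glands, against 10.47, 10.00 and 10.49 in day 14 non-pregnant glands. All 3 pregnant glands lay below all 3 non-pregnant glands, with day 14 non-pregnant replicate 2 close to the pregnant range. The difference was -0.51 ± 0.16, with a limma p of 0.00737 before adjustment and 0.142 after it, so ATF4 did not pass. For ATF4 the batch A value was -0.36 and the batch B value -0.63.

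DDIT3, the cell death factor CHOP, read 6.85, 7.23 and 7.07 in day 14 pregnant glands, against 6.83, 7.78 and 7.57 in day 14 non-pregnant glands. The 2 high day 14 non-pregnant arrays were those of batch A, and the batch B array of the group was the lowest of all 12. The fitted difference was -0.22 ± 0.18 (limma adjusted p = 0.588). Batch A alone gave -0.61 and batch B alone gave 0.21, so DDIT3 had opposite signs in the batches. Without day 14 non-pregnant replicates 2 and 3, the DDIT3 difference was 0.18.

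By Pearson correlation over the 12 arrays, the 5 genes most like DDIT3 among 9020 were MSR1 (r = 0.955), FETUB (0.916), KRT8 (0.911), CD68 (0.909) and PPARG (0.898). MSR1 is a macrophage scavenger receptor, CD68 a lysosomal protein used as a macrophage marker, KRT8 a keratin and PPARG a nuclear receptor of lipid metabolism, and FETUB was dim on this array, at a mean level of 2.59. MSR1 read 5.09, 5.49 and 5.45 in day 14 pregnant glands, against 5.23, 6.41 and 6.39 in day 14 non-pregnant glands. CD68 read 6.18, 6.70 and 6.63 in day 14 pregnant glands, against 6.47, 7.73 and 7.60 in day 14 non-pregnant glands. The same 2 batch A arrays were the highest of the 12 for DDIT3 and for all 5 of these genes. They read 6.43 and 6.25 for PPARG, 4.93 and 4.34 for KRT8, and 2.93 and 2.76 for FETUB. The differences in batch A and batch B were -0.95 and 0.064 for MSR1 and -1.04 and -0.034 for CD68. For PPARG they were -1.83 and 0.39, for KRT8 -0.90 and 0.18, and for FETUB -0.30 and 0.23. Without these 2 arrays, the correlation with DDIT3 over 10 arrays was 0.858 for MSR1, 0.723 for FETUB, 0.620 for KRT8, 0.533 for CD68 and 0.434 for PPARG. This check was chosen after the values were seen. The 5 genes were also picked on all 12 arrays, which hold these 10, so high remaining values are in part built in. Of 10 macrophage markers, 7 were measured and 0 passed in limma on day 14, with 3 above and 4 below 0 and a median of -0.13. They ran from CD68 at -0.63 to CSF1R at 0.47. The mean log2 level of the 7 markers was 7.17 to 7.76 in day 14 pregnant glands, against 7.10 to 8.12 in day 14 non-pregnant glands. The part of macrophages in the DDIT3 values was not tested.

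**Figure D2:**
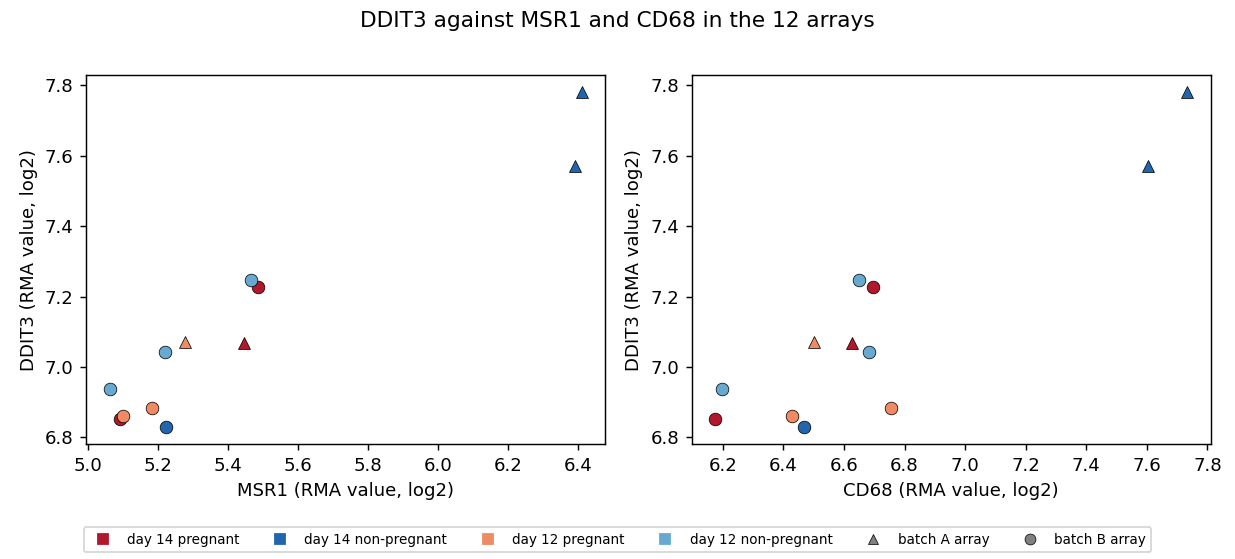
Log2 level of DDIT3 (y axis) against MSR1 and CD68 (x axes) in each of the 12 arrays, by group and array batch. The 2 day 14 non-pregnant arrays of batch A lie highest in each panel, at DDIT3 levels of 7.57 and 7.78.

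Taking the 8 genes as a list, the count of called genes on day 14 was 1 lower (HSPA5) and 0 higher. Of all probe sets, 1.45% were called in either direction and 0.912% were called lower. At an unadjusted p under 0.05, 3 of the 8 genes were lower (HSPA5, DNAJB9 and ATF4), against 6.8% of all probe sets. Groups did not overlap for 2 of the 8, HSPA5 and ATF4, against 7.15% of all probe sets that were lower without overlap. The median difference of the 8 genes was -0.16, with 7 of 8 below 0, against a median of 0.029 over all probe sets with 43.4% below 0. The genes were named with earlier results of these data known, so their share is a description.

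**Figure D3:**
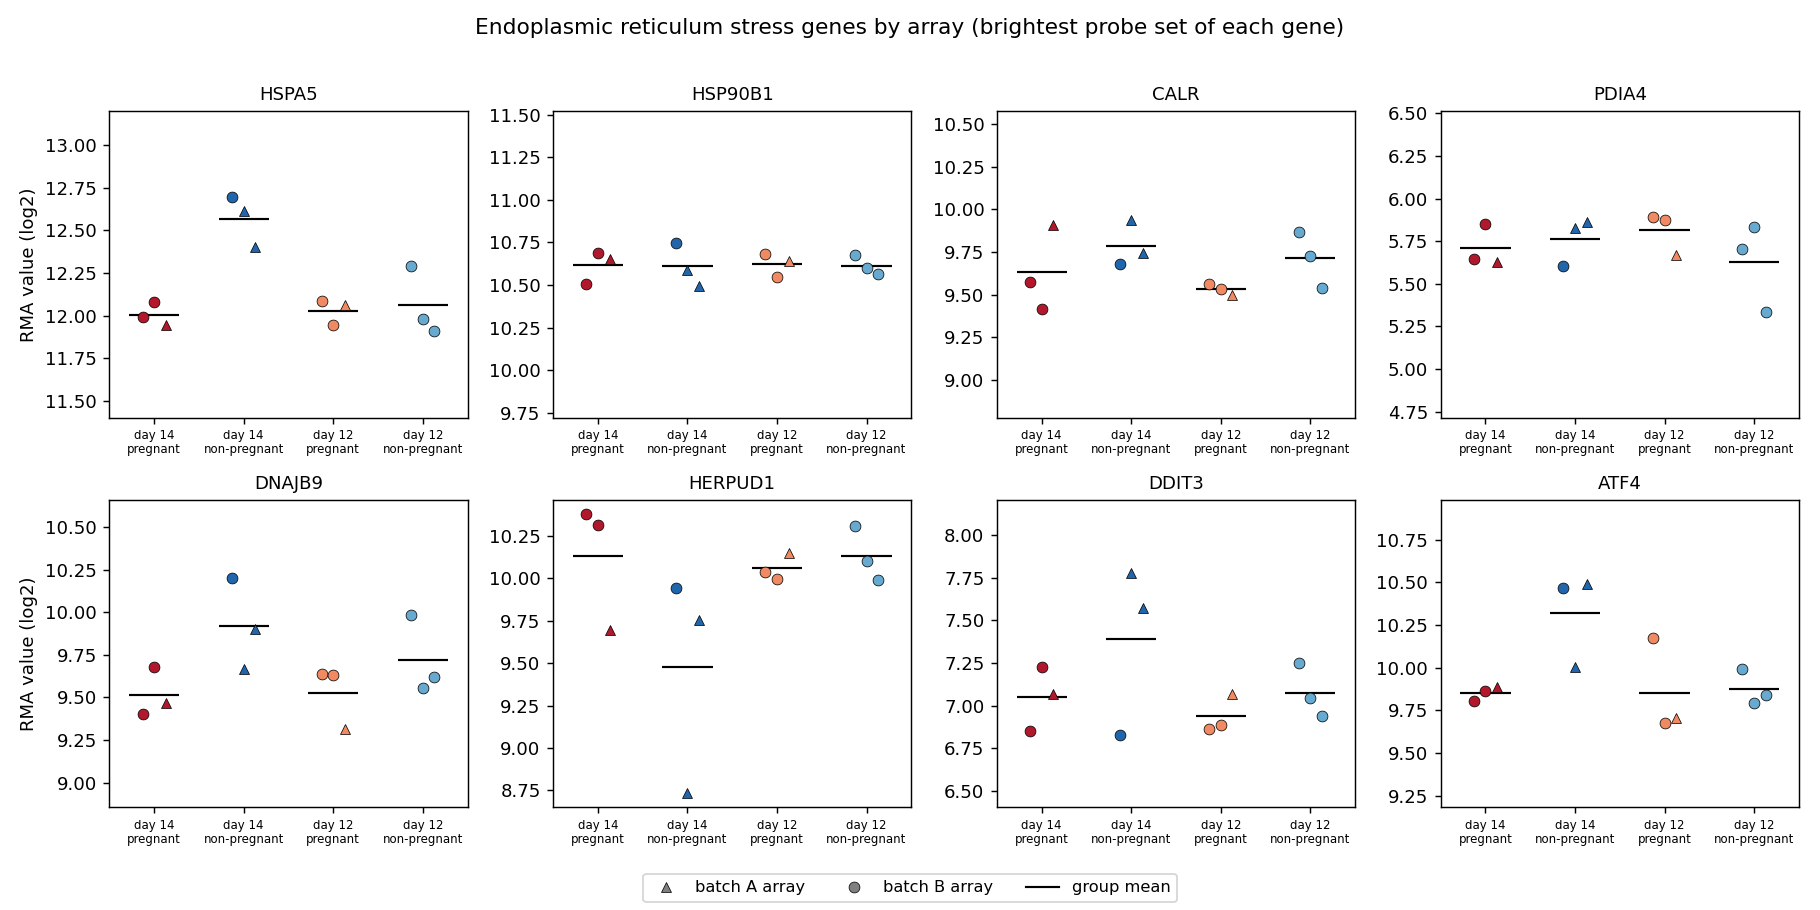
Log2 level of the brightest probe set of each of the 8 genes in every array, by group, with the group mean. HSPA5 and ATF4 separate the day 14 pregnant arrays from the day 14 non-pregnant arrays, and HSP90B1, CALR, PDIA4, DNAJB9, HERPUD1 and DDIT3 overlap between them.

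Averaged by role, with each gene first centred on its mean over the 12 arrays, the 5 folding genes lay at -0.14, -0.027 and -0.050 in day 14 pregnant glands, against 0.22, 0.16 and 0.11 in day 14 non-pregnant glands. The 2 transcription factors DDIT3 and ATF4 lay at -0.22, -0.00025 and -0.067 in day 14 pregnant glands, against 0.10, 0.35 and 0.49 in day 14 non-pregnant glands. Both averages were higher in every day 14 non-pregnant gland than in any day 14 pregnant gland. Without HSPA5, the folding average was -0.14, -0.011 and -0.0066 in day 14 pregnant glands, against 0.14, 0.084 and 0.080 in day 14 non-pregnant glands. These ranges did not overlap, but the average still held DNAJB9, with its difference of -0.49. HSP90B1, CALR and PDIA4 each overlapped between the groups. The folding average minus the factor average was 0.071, -0.026 and 0.018 in day 14 pregnant glands, against 0.11, -0.19 and -0.38 in day 14 non-pregnant glands. The balance between the averages overlapped between the groups. These averages were not adjusted for batch and not tested, and no share over all probe sets was taken for their lack of overlap. On day 14 HSPA5 and DNAJB9 carried most of the folding average, beside differences of -0.0080 for HSP90B1, -0.095 for CALR and -0.067 for PDIA4. DDIT3 in the factor average turned to 0.18 without day 14 non-pregnant replicates 2 and 3. Array by array they did not order the glands alike: the folding average was highest in day 14 non-pregnant replicate 1 of batch B, and the factor average was highest in replicate 3 of batch A.

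On day 12, 0 of the 8 genes and 0 of all 24016 probe sets (0%) passed in limma for the pregnancy effect, and 7.69% of all probe sets had an unadjusted p under 0.05. None of the 8 genes did in its brightest probe set. The second HSPA5 probe set read 8.89, 8.66 and 8.72 in day 12 pregnant glands, against 9.61, 9.22 and 8.96 in day 12 non-pregnant glands. These ranges did not overlap, which held in the same direction for 7.87% of all probe sets, and the difference was -0.47 ± 0.17, with a limma p of 0.0164 before and 0.575 after adjustment. The brightest HSPA5 probe set read 12.08, 11.94 and 12.06 in day 12 pregnant glands, against 12.29, 11.98 and 11.91 in day 12 non-pregnant glands. It overlapped between the groups and gave -0.0056 ± 0.12, and the gap between the probe sets was not tested. The differences of the other 7 genes in their brightest sets lay between -0.26 (DDIT3) and 0.20 (PDIA4).

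In non-pregnant ewes, day 14 was compared with day 12, the span in which a cycle without a conceptus nears luteal regression. None of the 8 genes passed, against 0.391% of all probe sets. HSPA5 was higher in each day 14 gland than in each day 12 gland in all 3 of its probe sets, with differences of 0.56 ± 0.13, 0.71 ± 0.19 and 0.32 and limma adjusted p of 0.117, 0.152 and 0.468. ATF4 read 10.47, 10.00 and 10.49 on day 14, against 9.99, 9.79 and 9.84 on day 12, again without overlap, with a difference of 0.53 ± 0.17 (limma adjusted p = 0.251). HERPUD1 was lower in each day 14 gland than in each day 12 gland, with a difference of -0.39 ± 0.27 (limma adjusted p = 0.632). Of the 8 genes, 2 were higher and 1 was lower without overlap, against 7.67% and 12.1% of all probe sets. At an unadjusted p under 0.05 in limma, HSPA5, ATF4 and DNAJB9 were higher, 3 of the 8 genes against 5.32% of all probe sets. DNAJB9 differed by 0.38 ± 0.15 (limma adjusted p = 0.365), with overlap. All day 12 non-pregnant arrays were of batch B, and against the 1 day 14 non-pregnant array of that batch the differences were 0.63 for HSPA5, 0.59 for ATF4 and 0.48 for DNAJB9. HERPUD1 gave -0.19 in that batch, CALR -0.036 and HSP90B1 0.13. The sign was opposite to the fit for DDIT3, at -0.25 beside a fitted 0.079, and for PDIA4, at -0.020 beside 0.16. The day difference of the brightest HSPA5 probe set passed with no batch term (0.51, limma adjusted p = 0.0471) and with batch as a random block (0.50, limma adjusted p = 0.0448).

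In pregnant ewes the same span showed little difference. All 12 probe sets lay between -0.10 and 0.12 for day 14 minus day 12, with limma adjusted p of 0.992 to 0.999, and 0 of all probe sets (0%) passed, against 4.43% at an unadjusted p under 0.05. For the brightest HSPA5 probe set the difference was -0.025, with a 95% interval of -0.28 to 0.23. For ATF4 it was -0.00083, with an interval of -0.33 to 0.33. Such an interval holds the differences that the data allow and is not a limit of detection. With 3 ewes per group, larger differences could also be missed. In non-pregnant ewes a day difference of 0.56 for HSPA5 did not pass (limma adjusted p = 0.117).

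**Figure D4:**
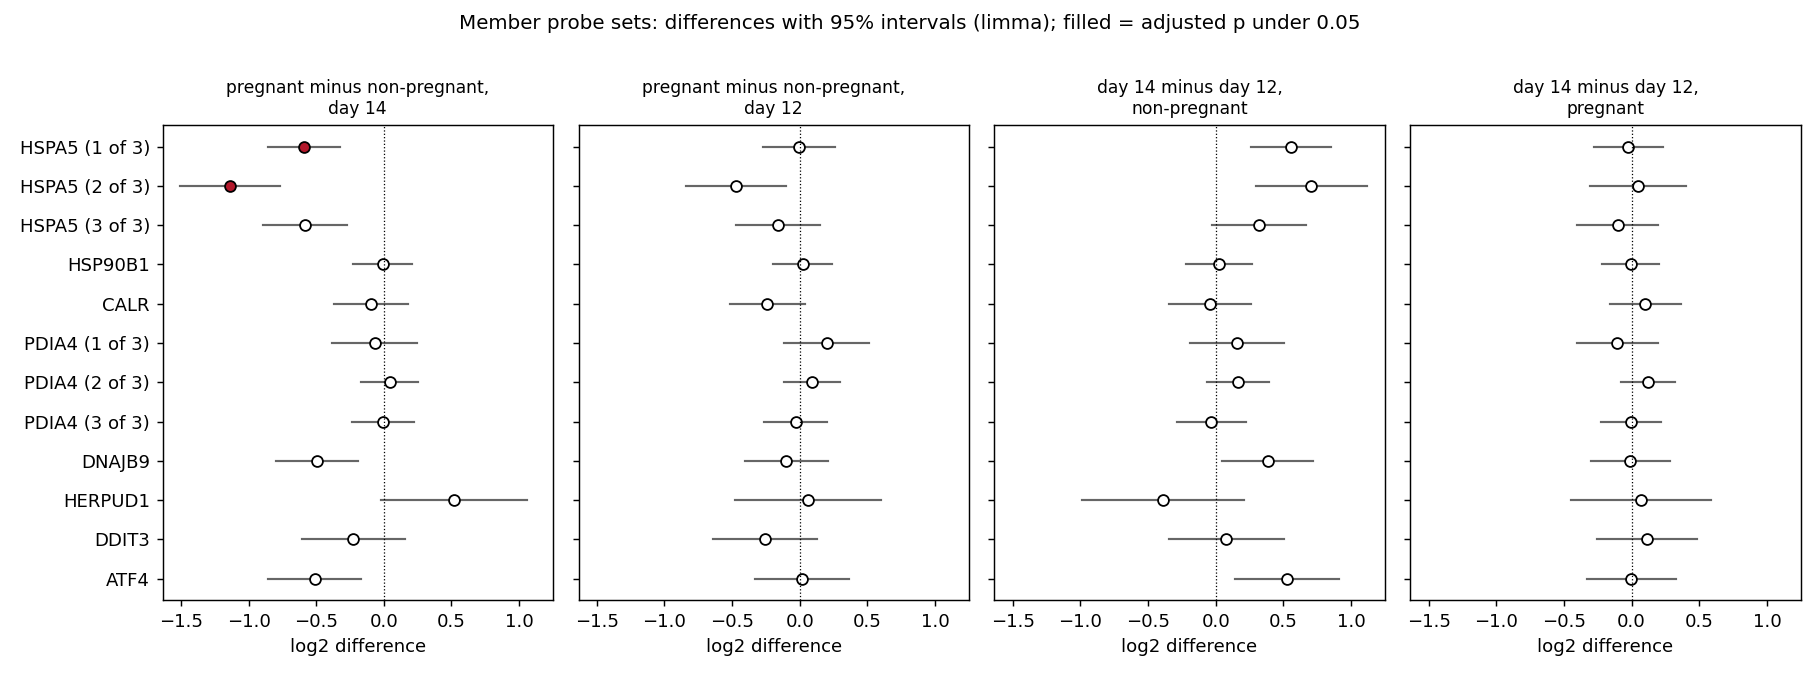
Fitted log2 difference with its 95% interval (x axis) for each of the 12 probe sets in 4 comparisons, filled where the adjusted p passed, as for the brighter 2 HSPA5 sets in the day 14 pregnancy effect. The intervals of DNAJB9, ATF4 and the brighter 2 HSPA5 sets lie below 0 in that comparison and above 0 in the day effect of non-pregnant ewes, where none passed, and all 12 probe sets lie near 0 in the day effect of pregnant ewes.

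Whether the pregnancy effect differed between the days was tested with an interaction term, which 0 of the 8 genes passed, against 0.0874% of all probe sets. The interaction was -0.58 ± 0.18 for the brightest HSPA5 probe set (limma adjusted p = 0.333) and -0.53 ± 0.23 for ATF4 (limma adjusted p = 0.504). At an unadjusted p under 0.05 in limma, these were the 2 of the 8 genes with a lower value, against 4.16% of all probe sets. The day 14 effect of HSPA5 is therefore not shown to differ from that of day 12. Averaged over both days, the second HSPA5 probe set was lower in pregnant glands, with a difference of -0.80 ± 0.11 (limma adjusted p = 0.0143), at rank 28 of all probe sets. It was the only one of the 12 to pass the average, against 0.866% of all probe sets called and 0.666% called lower, and the brightest set gave -0.30 ± 0.08 (limma adjusted p = 0.122). At an unadjusted p under 0.05 in limma, 3 of the 8 genes were lower in the average, against 6.88% of all probe sets. The mean of the 3 HSPA5 probe sets, taken as 1 value, passed on day 14 (-0.77, limma adjusted p = 0.0185) and in the average (-0.49, limma adjusted p = 0.0335).

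The wider machinery was followed in 5 lists chosen for their roles. Of 21 other chaperones and folding enzymes of the endoplasmic reticulum, 17 were measured and 0 passed on day 14, with 9 above and 8 below 0 and a median of 0.0069. The 3 with the smallest p were ERO1A, an oxidase that drives disulfide formation, at -0.44 ± 0.11 (limma adjusted p = 0.0835) from a dim probe set with a mean level of 2.48, DNAJC3, an inhibitor of PERK and HSPA5 cochaperone, at -0.33, and SDF2L1 at 0.21. Of 16 genes of endoplasmic reticulum degradation, 13 were measured and 0 passed, with a median of 0.078. SELENOS, a selenoprotein of that complex, gave -0.36 ± 0.10, DERL3, a derlin, 0.32 ± 0.10, and SYVN1, the ubiquitin ligase HRD1, -0.19. These genes went in different directions, and the list medians lay close to the 0.029 of all probe sets.

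Among 13 genes of stress sensing and translation control, 9 were measured and 0 passed on day 14, with 2 above and 7 below 0 and a median of -0.17. EIF2S1, which encodes eIF2alpha, gave -0.43 ± 0.14 (limma adjusted p = 0.156), and EIF2AK3, which encodes the sensor PERK, gave -0.62 ± 0.24 (limma adjusted p = 0.239). ATF6B, a relative of ATF6, gave 0.26. On day 12 the pregnancy differences were -0.063 for EIF2S1, -0.70 ± 0.24 for EIF2AK3 (limma adjusted p = 0.560) and 0.21 for ATF6B. On day 14 the EIF2S1 difference was -0.10 in batch A and -0.73 in batch B. Of 23 genes of translocation and the early secretory pathway, 19 were measured and 0 passed, with 8 above and 11 below 0 and a median of -0.0039. SEC61G, a subunit of the translocation channel, gave -0.25, SSR1, a subunit of the translocon-associated complex, gave -0.24, and KDELR2, a receptor that returns proteins to the endoplasmic reticulum, gave -0.20. Their day 12 pregnancy differences were 0.13 for SEC61G, 0.037 for SSR1 and 0.39 ± 0.11 for KDELR2 (limma adjusted p = 0.439). The interaction of KDELR2 was -0.59 ± 0.15 and did not pass (limma adjusted p = 0.272).

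Of 20 known targets of ATF4 and DDIT3, 16 were measured. On day 14, 1 was called lower and 0 were called higher, against 0.912% and 0.537% of all probe sets. The gene that passed was NUPR1, a small stress-induced chromatin protein. NUPR1 read 8.02, 8.02 and 8.24 in day 14 pregnant glands, against 8.50, 8.86 and 8.99 in day 14 non-pregnant glands. These ranges did not overlap, which held in the same direction for 7.15% of all probe sets. The NUPR1 difference was -0.60 ± 0.0995 (limma adjusted p = 0.0162), with -0.68 in batch A and -0.48 in batch B. The average of NUPR1 over both days was -0.42 ± 0.0676 (limma adjusted p = 0.0205). That call was lost with no batch term (0.0534), with batch as a random block (0.0590) and without day 14 non-pregnant replicates 2 and 3 (-0.34, 0.123), and it passed in 7 of 12 fits that left out 1 array. On day 14, NUPR1 missed the threshold without day 14 pregnant replicate 3 (limma adjusted p = 0.108), without day 14 non-pregnant replicates 2 and 3 (0.153) and when only the 6 day 14 arrays were fitted (0.159). The other 15 targets had 7 above and 8 below 0. ATF3, named here after its values were seen because it had the lowest difference of the list, read 4.88, 4.75 and 5.77 in day 14 pregnant glands, against 7.11, 4.88 and 9.64 in day 14 non-pregnant glands. One array of the non-pregnant group stayed within the pregnant range of ATF3, and the difference did not pass (limma adjusted p = 0.315).

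**Figure D5:**
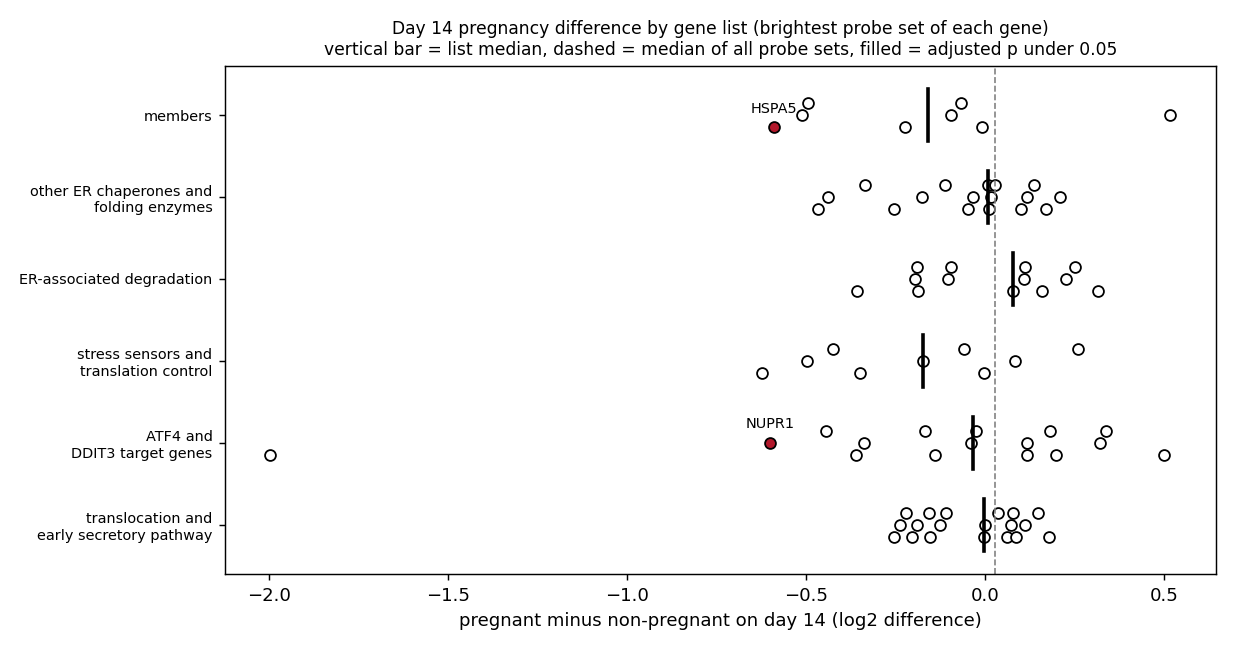
Day 14 pregnancy difference (pregnant minus non-pregnant, log2) of each measured gene in the 8 genes and in the 5 further lists, with the list median. The medians lie between -0.17 and 0.078, and HSPA5 and NUPR1 are the genes past the threshold.

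By correlation over the 12 arrays, the 5 genes most like HSPA5 among 9020 were NAA50 (r = 0.944), ADAM10 (0.932), CLTC (0.917), TXNRD3 (0.916) and TGFB1 (0.914). Without day 14 non-pregnant replicates 2 and 3, these values were 0.918, 0.912, 0.903, 0.889 and 0.895 over 10 arrays. The genes were picked on all 12 arrays, which hold these 10, so high values are in part built in. NAA50 is a protein acetyltransferase, ADAM10 a membrane protease, CLTC the clathrin heavy chain, TXNRD3 a thioredoxin reductase and TGFB1 a growth factor. Among the 8 genes, HSPA5 correlated with ATF4 at 0.743 and with DNAJB9 at 0.732 over the 12 arrays. After the group means were removed, the values were 0.186 for ATF4, 0.531 for DNAJB9 and 0.732 for HSP90B1, whose correlation with HSPA5 over all arrays was 0.277. All these correlations share the same arrays and the same 4 groups.

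Marker genes of cell types are given beside these results as RNA levels of whole glands, which mix cell number and RNA per cell. All 8 defining markers of steroid-making luteal cells, the cells of the labelled tissue, were measured, and their mean log2 level was 9.97 to 10.1 in day 14 pregnant glands, against 9.46 to 9.88 in day 14 non-pregnant glands. STAR, which brings cholesterol into mitochondria, was the 1 of 8 that passed on day 14, at 0.74 ± 0.13 (limma adjusted p = 0.0245). Over all probe sets, 0.537% were called higher and 0.912% lower on day 14. Of 10 endothelial markers, 9 were measured, with 5 above and 4 below 0 and a median of 0.075. CD34 at 1.09 and TIE1 at 0.48 passed, and the lowest was PECAM1 at -0.40 (limma adjusted p = 0.421). The endothelial list had means of 6.60 to 6.70 in day 14 pregnant glands and 6.32 to 6.60 in day 14 non-pregnant glands. Of 8 smooth muscle and pericyte markers, 4 were above and 4 below 0, with a median of -0.0082. CNN1 was lower at -1.54 (limma adjusted p = 0.000974), and the highest was MYH11 at 0.72, which did not pass (limma adjusted p = 0.0962). No marker of fibroblasts, T cells, B and plasma cells or red blood cells passed in limma on day 14, with 8 of 8, 9 of 10, 5 of 10 and 5 of 6 measured. The steroidogenic mean was lower in each day 14 non-pregnant gland than in each day 14 pregnant gland. The part of the cell makeup in the HSPA5 result was not tested.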

How the data were processed

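The authors deposited log2 values of 24128 probe sets, and the submitters' processing notes name RMA and Affymetrix Expression Console. No version is given in the sources used here. The method corrects background, sets all arrays to 1 distribution and sums probes on the log2 scale. Without detection calls, dim probe sets may hold background only, and a change common to most genes would be removed.

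After leaving out 112 control probe sets, limma 3.58.1 in R 4.3.3 fitted a mean per group and an additive batch term to all 12 arrays (7 residual and 4.39 prior degrees of freedom). Tests were two-sided, with Benjamini-Hochberg adjustment over 24016 probe sets in each of 6 comparisons and a threshold of 0.05. The fit was tested on simulated data. The batch term passed for 0 probe sets in limma, with 1658 at an unadjusted p under 0.05. Batch and the day effect in non-pregnant ewes overlap in part, since no day 12 non-pregnant array was in batch A.

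GEO's annotation of this bovine platform gave 1 symbol to 13292 probe sets, several to 86 and none to 10638. The brightest probe set, by its mean over all arrays, stood for a gene in counts and medians. Every member was described. From each further list, genes past the threshold in any comparison were named, or the 3 with the smallest day 14 p where none passed. For HSPA5 and DDIT3, the 5 genes with the highest correlation were named. Members and lists were chosen with earlier results of these data known. The sign ± stands for the SE of a log2 difference from the fit. Each array came from another ewe, and 12 arrays limit the precision.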

Additional observations from a re-analysis of the deposited data

How the results depend on the processing

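Over 78 values of the 12 probe sets and NUPR1, 1504 comparisons with an alternative setting kept the side of the threshold in 1468. They lost the call in 29, gained it in 7 and reversed no called value. Most of the 78 values were not called in the main fit, so most of the 1468 were uncalled values that stayed uncalled. The called values were the brightest and second HSPA5 probe sets on day 14, the second in the average, and NUPR1 in both. All 29 losses fell on these few values, and uncalled values changed sign in 111 comparisons. The count of the 8 genes called on day 14 was 1, and it was 0 with only the compared arrays fitted, with array weights, and without the batch A pair of day 14 non-pregnant arrays (replicates 2 and 3), and 0 to 1 over the fits that left out 1 array. The brightest HSPA5 probe set gave -0.61 (limma adjusted p = 0.151), -0.56 (0.133) and -0.68 (0.111) in these settings, and passed only without day 14 non-pregnant replicate 3 (0.0373) or without day 12 non-pregnant replicate 1 (0.0309) among the 12 left-out arrays. In non-pregnant ewes the count was 0, and 1 with no batch term or a random block. In the average it was 0, and 1 for the mean of a gene's probe sets. The second HSPA5 probe set missed the average threshold without day 12 pregnant replicate 3 (0.0514) and without that pair (0.0694).

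Over all probe sets, the day 14 count of 348 became 531 with no batch term, 24 with only the compared arrays, 141 with array weights and 174 without that pair, and ranged from 88 to 510 over left-out arrays. The day 12 count of 0 was 1 with only the compared arrays and 0 to 5 over left-out arrays. In non-pregnant ewes, 94 became 415 with no batch term, 462 with a random block, 1 with only the compared arrays and 159 without that pair, and 28 to 254 over left-out arrays. The interaction count of 21 became 50 with no batch term, 50 with a random block and 59 without that pair, and 1 to 76 over left-out arrays. The average count of 208 became 55 without that pair, and 18 to 348 over left-out arrays. The day effect in pregnant ewes stayed at 0 in all settings run. Fits of fewer arrays have fewer degrees of freedom, and the cause of the other changes was not tested. Dim probe sets, such as the third HSPA5 set, cannot show a difference that lies below the signal floor. No paired analysis was possible because the labels give no replicate numbers that groups share.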
